A study of Mus musculus with 6 samples.

Results

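TFIID is the complex of the TATA-binding protein TBP and TBP-associated factors (TAFs) that recognises promoters and nucleates RNA polymerase II initiation. The genes described here encode its subunits TAF2, TAF4, TAF4B, TAF5, TAF6, TAF7, TAF9B, TAF11, TAF12 and TAF13. TAF10, the product of the gene targeted in the mutants, is set aside with TBP, TAF1, TAF3, TAF8 and TAF9, whose genes are given below. The genes were chosen as the probe sets whose only platform gene symbol was a listed subunit gene, which gave 11 probe sets for 10 genes, of 16311 probe sets with 1 symbol that stood for 15153 genes. Taf13 had 2 probe sets and each of the other genes had 1.

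Presomitic mesoderm, the tissue that buds off somites as the body axis grows, was microdissected from mouse embryos at embryonic day 9.5, and each of 6 arrays read a pool of 3 tissues from embryos with 17 to 19 somites. The 3 mutant pools came from TCre/+;Taf10flox/flox embryos, in which both floxed Taf10 alleles can be recombined by T-Cre, a Cre recombinase named for the promoter that drives it in early mesoderm. The 3 control pools, labelled WT, came from Taf10Flox/+ or Taf10flox/flox embryos, so every pool carried at least 1 floxed allele, and the labels do not say whether any control embryo carried Cre. The comparison asks how expression of the other TFIID genes in this tissue differed between embryos labelled as Taf10 mutant with T-Cre and controls. Taf10 itself had 2 probe sets, which part of the transcript either reads is not known here, and so neither checks the deletion. The one placed by the array's numbering on the chromosome of Taf10 (10566525, 9 of its 10 nearest probe sets) was not lower in mutants, at 8.85, 8.93 and 9.19 in mutants 1 to 3, against 8.95, 8.89 and 8.79 in controls 1 to 3 (log2 intensity, change 0.11, limma adjusted p = 0.530). The other (10365288, 0 of 10) was lower, at 10.40, 10.37 and 10.18 in mutants 1 to 3, against 10.77, 10.61 and 10.69 in controls 1 to 3 (change -0.37, limma adjusted p = 0.0400). The deposited values therefore do not settle the label, and mutant is used below as the label's word.

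TFIID is built around a core in which TAF5 acts as a scaffold and TAF6 with TAF9 and TAF4 with TAF12 pair through histone folds, protein surfaces shaped like those of histone pairs. TAF2 and TAF7 join around that core and act with TAF1, the largest subunit, while TAF11 and TAF13 form another histone-fold pair that contacts TBP. TAF9, TAF10 and TAF12 also serve in the coactivator SAGA, which uses the TAF5 and TAF6 relatives TAF5L and TAF6L in place of TAF5 and TAF6.

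Promoter windows were read for short motifs that some of these genes share, a feature that their selection did not use. RefSeq (GRCm38.p6) windows of 250 bases before and 50 after a gene's start were matched by symbol for 7 of the 10 genes, and none was matched for Taf2, Taf4b or Taf7. The windows below run from 100 bases before to 50 after the start, 5′ to 3′ on the gene's strand. They are shown for the Taf genes that rose in mutants and have a window, and for Taf9b and Taf13, whose windows hold the same motifs. Taf11, the other gene with a window, also holds CCGGAAGT and TATAAA but is not shown, and it did not pass as changed. Capitals mark AAGATGGC, the core of the motif of the factor YY1, CCGGAAGT, a motif of ETS factors, and TATAAA, the letters of the TATA box read by TBP, each on either strand.
Taf4, chr2:179976597-179976746, minus strand: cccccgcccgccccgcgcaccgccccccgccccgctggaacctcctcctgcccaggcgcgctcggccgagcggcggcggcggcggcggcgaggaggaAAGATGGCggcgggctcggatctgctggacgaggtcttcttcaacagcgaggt
Taf5, chr19:47067648-47067797, plus strand: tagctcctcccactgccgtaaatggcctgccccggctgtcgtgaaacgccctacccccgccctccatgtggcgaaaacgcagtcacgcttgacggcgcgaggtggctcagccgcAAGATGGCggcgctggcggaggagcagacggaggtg
Taf6, chr5:138187177-138187326, minus strand: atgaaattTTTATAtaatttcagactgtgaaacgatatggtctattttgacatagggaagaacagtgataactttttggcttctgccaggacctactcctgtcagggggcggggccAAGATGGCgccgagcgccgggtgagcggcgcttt
Taf9b, chrX:106221109-106221258, minus strand: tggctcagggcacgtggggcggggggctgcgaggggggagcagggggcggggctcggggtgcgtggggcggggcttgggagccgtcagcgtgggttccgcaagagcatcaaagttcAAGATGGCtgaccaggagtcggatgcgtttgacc
Taf12, chr4:132274275-132274424, plus strand: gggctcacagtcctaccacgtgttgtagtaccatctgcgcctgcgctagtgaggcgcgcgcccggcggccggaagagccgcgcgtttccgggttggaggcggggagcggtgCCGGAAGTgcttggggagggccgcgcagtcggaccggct
Taf13, chr3:108571599-108571748, plus strand: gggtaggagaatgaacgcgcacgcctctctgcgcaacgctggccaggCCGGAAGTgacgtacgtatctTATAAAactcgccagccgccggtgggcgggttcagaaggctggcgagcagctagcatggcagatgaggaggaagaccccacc

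Taf4, Taf5, Taf6 and Taf9b, 4 of the 7 genes with a window, hold AAGATGGC on the gene's own strand close to the start. Its first base lies 3 bases before the start in Taf4 and 14, 16 and 16 bases after it in Taf5, Taf6 and Taf9b. AAGATGGC contains ATG, the letters of a translation start codon, and the annotated start of Taf4 falls on the A of that ATG. Whether the letters serve as a promoter motif or belong to a start codon was not tested. Of all 32851 mouse windows of the same length, 2.75% hold these letters on either strand, and 1.68% hold them on the gene's strand. CCGGAAGT is in windows of Taf11, Taf12 and Taf13 (3.89% of all windows), and TATAAA in those of Taf5, Taf6, Taf11 and Taf13 (13.6% of all windows). In Taf13 alone of these 4, TATAAA begins 32 bases before the start on the gene's strand. The match capitalised in Taf6 lies on the opposite strand, 92 bases before the start. GGGCGG, the GC box of Sp1, is in a window of 6 of the 7 genes, Taf12 being the exception, and in 35.7% of all windows. The motifs were chosen after the sequences were read, a match shows only that the letters are there, and genes with several start sites (Taf6, Taf9b and Taf11) had 2 windows each.

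The arrays were alike in scale, with median intensities from 307.9 to 317.5. Mutant 3 lay farthest from its group, with a root mean square distance of 0.189 log2 units from the mutant mean, against 0.0779 to 0.115 for the other arrays. Of the 12 presomitic mesoderm markers listed, 11 were measured, and Tbx6, which is required for that identity, stood at 12.59, 12.47 and 12.77 in mutants 1 to 3, against 11.95, 11.90 and 12.09 in controls 1 to 3 (log2 intensity). The summed intensity of the 11 markers ran from 27253 to 29383 in mutant pools and from 24136 to 25053 in control pools, without overlap. Among them Tbx6 and Hes7 rose and Cyp26a1 and Rspo3 fell. Msgn1, Dll1 and Dll3 also changed upward, and Fgf8, Mesp2, Lfng and Wnt3a downward, without passing. The sum is taken over linear intensities, so it follows the brightest markers, Tbx6 and Msgn1 among them, and not the list as a whole. The summed levels of the neural, erythroid, endothelial, gut and notochord, surface ectoderm, somite, and intermediate and lateral mesoderm lists overlapped between genotypes. Lhx1 was the 1 gene of those lists that passed the test. In the somite list Pax3 and Tcf15 lay lower in every mutant pool than in any control (log2 changes -0.73 and -0.31), as 15.1% of all genes did. Neither passed (limma adjusted p = 0.0681 and 0.0862). Meox1 and Pax9 also changed downward, and Aldh1a2, Pax1 and Uncx upward, without passing. Mutant 3 had the lowest summed erythroid level, 11.91 on the log2 scale, against 14.01 and 13.83 in mutants 1 and 2 and 13.16 to 14.44 in the controls. The part of these shifts in the results below was not tested, and in such bulk tissue fewer cells of a type and less RNA per cell cannot be told apart.

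Expression of 5 TFIID subunit genes was higher in pools labelled mutant. Of the 10 genes 5 rose, Taf5, Taf6, Taf4, Taf4b and Taf12, by 1.31-fold to 1.71-fold, 0 fell and 5 did not pass (limma, adjusted p under 0.05 over all probe sets, n = 3 pools each). Among all 15153 genes, 2.96% rose and 2.96% fell by the same rule, 5.92% in all. At an unadjusted p under 0.05, 8 of the 10 were higher and 0 lower, where 11.7% of all genes were higher and 10.9% lower. All 3 mutant values lay above all 3 control values in 7 of the 10, and in 17.2% of all genes, and below them in 0 of the 10, against 15.1% of all genes. The median log2 change of the 10 was 0.48, against 0.03 over all genes. Grouped by role, 5 of the 6 genes for core subunits or their relatives rose, with a median log2 change of 0.60, and Taf9b did not pass. The core gene Taf9 is not among the 10, and by its probe set it changed by 0.04 and did not pass (limma adjusted p = 0.695). Of the 4 genes outside the core 0 passed, also with either probe set of Taf13, and their median was 0.07. That grouping was made with the results known and has no test.

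**Figure D1:**
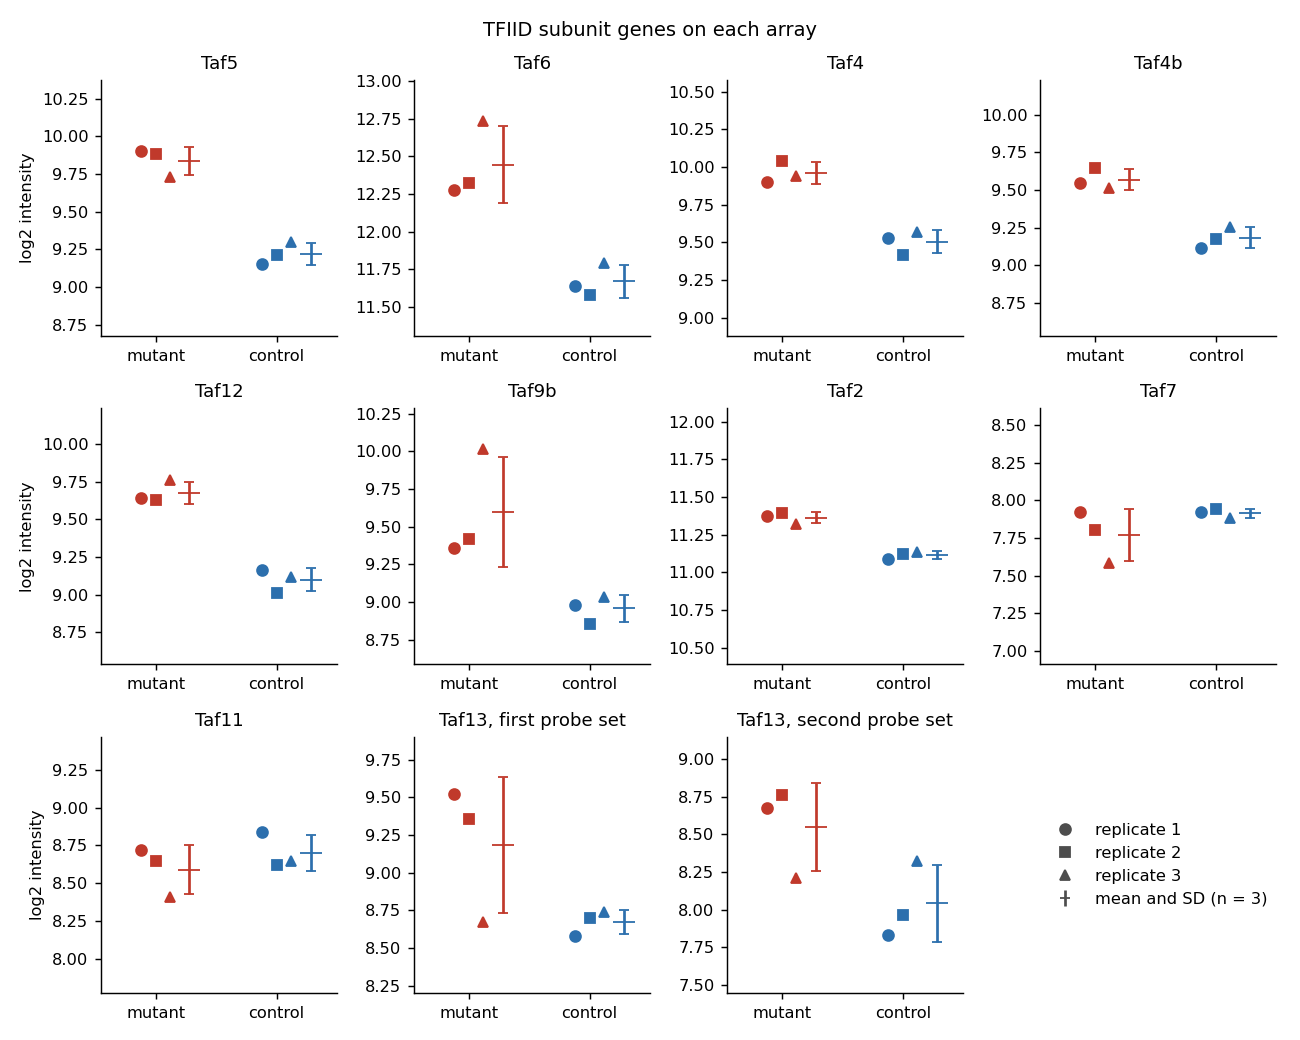
Log2 intensity of the 11 TFIID probe sets (y axes, each spanning 1.7 log2 units) on the 3 mutant arrays (red, left) and the 3 control arrays (blue, right). Symbols mark the replicate number, and bars the mean and SD of 3 pools. The groups do not overlap for Taf5, Taf6, Taf4, Taf4b, Taf12, Taf9b and Taf2. Mutant 3 stands high for Taf6 and Taf9b and low for both Taf13 probe sets.

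Taf5 encodes the scaffold of the core, whose WD40 and N-terminal domains hold the histone-fold pairs. Its log2 intensity was 9.90, 9.88 and 9.73 in mutants 1 to 3, against 9.15, 9.21 and 9.30 in controls 1 to 3. The groups were separated by 0.43 log2 units, more than 4 times the SD within either group (0.09 in mutants and 0.07 in controls). The log2 change was 0.62 (95% interval 0.44 to 0.79, limma adjusted p = 0.00698).

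Taf6 encodes the histone-fold partner of TAF9 and showed the largest change of the 10 genes over all 6 arrays. It stood at 12.27, 12.32 and 12.74 in mutants 1 to 3, against 11.64, 11.58 and 11.79 in controls 1 to 3. Mutant 3 was the highest of the mutants, and the SD was 0.25 in mutants and 0.11 in controls. The log2 change was 0.77 (95% interval 0.48 to 1.07, limma adjusted p = 0.0164), and without mutant 3 it was 0.63, below Taf13 (0.77) and Taf5 (0.67).

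Taf4 encodes the core subunit that pairs with TAF12 and binds activators. Its values were 9.90, 10.04 and 9.94 in mutants 1 to 3, against 9.53, 9.42 and 9.57 in controls 1 to 3, with no overlap. The change of 0.46 on the log2 scale (95% interval 0.29 to 0.62, limma adjusted p = 0.0139) corresponds to 1.37-fold. Taf4b, a paralogue of Taf4 known for its role in mouse germ cells, stood at 9.55, 9.64 and 9.51 in mutants 1 to 3, against 9.12, 9.18 and 9.25 in controls 1 to 3. It changed by 0.38 (95% interval 0.22 to 0.55, limma adjusted p = 0.0235), the smallest change of the 5 that passed. Over the 6 arrays, each gene centred on its mean, Taf4 and Taf4b were the nearest of the 45 pairs that the 10 genes form, at a Euclidean distance of 0.157 log2 units.

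Taf12, whose product pairs with TAF4 in TFIID and also serves in SAGA, was read at 9.64, 9.63 and 9.76 in mutants 1 to 3, against 9.16, 9.01 and 9.12 in controls 1 to 3. The gap between the groups was 0.47 log2 units, and the change was 0.58 (95% interval 0.41 to 0.74, limma adjusted p = 0.00758). The next probe set in the array's numbering is Snora16a, a small nucleolar RNA gene, and no RefSeq gene overlaps Taf12.

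Taf9b encodes a close relative of TAF9, and lies on the X chromosome. It was read at 9.36, 9.42 and 10.01 in mutants 1 to 3, against 8.98, 8.86 and 9.04 in controls 1 to 3. The groups did not overlap, and mutant 3 lay 0.63 log2 units above the mean of mutants 1 and 2. The SD was 0.36 in mutants and 0.09 in controls, and the change of 0.64 did not pass (95% interval 0.26 to 1.02, limma adjusted p = 0.0626). Without mutant 3 the change was 0.43 and passed (limma adjusted p = 0.00713, with a range of 0.000963 to 0.242 over all alternatives). The pools differed in sex: Xist, transcribed from the inactive X chromosome, stood at 12.53, 12.13 and 11.35 in mutants 1 to 3, against 12.57, 12.03 and 6.32 in controls 1 to 3. Control 3, the pool with the low Xist level, had the highest Taf9b level of the controls, and with Xist as a covariate the change was 0.70 (limma adjusted p = 0.0953). Xist was far lower in control 3 than in any other pool, so this covariate mainly sets that pool apart. It adjusts little for sex among the other pools.

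Taf2 encodes an aminopeptidase-like subunit that contacts the initiator element with TAF1. Its SD was the smallest of the 10 genes in both groups, 0.0358 in mutants and 0.0257 in controls, with values of 11.37, 11.39 and 11.32 in mutants 1 to 3, against 11.09, 11.12 and 11.14 in controls 1 to 3. The groups did not overlap, yet the change of 0.25 missed the threshold (95% interval 0.11 to 0.39, limma adjusted p = 0.0543, with a range of 0.00172 to 0.202 over the alternatives). It passed without mutant 3, after quantile normalization, after loess removal of trends against level, with a filter on level, with array weights, and without control 3 and mutant 3 together.

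Taf7 encodes a subunit that binds TAF1 and restrains its activity. It was read at 7.92, 7.80 and 7.58 in mutants 1 to 3, against 7.92, 7.94 and 7.88 in controls 1 to 3, and mutant 1 lay among the controls. The change of -0.14 did not pass (95% interval -0.36 to 0.07, limma adjusted p = 0.388), so a rise of the size seen for Taf5 lies outside its interval.

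TAF11 and TAF13 form the histone-fold pair next to TBP, and their genes were read differently. Taf11 stood at 8.72, 8.65 and 8.41 in mutants 1 to 3, against 8.84, 8.62 and 8.65 in controls 1 to 3, and the groups overlapped. Its change was -0.11 (95% interval -0.34 to 0.12, limma adjusted p = 0.541).

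The Taf13 probe set with the higher level (10375973) was at 9.52 and 9.36 in mutants 1 and 2 and 8.67 in mutant 3, against 8.58, 8.70 and 8.74 in controls 1 to 3. Mutant 3 lay within the controls. The other (10495340) was at 8.67, 8.76 and 8.21 in mutants 1 to 3, against 7.83, 7.97 and 8.33 in controls 1 to 3, and mutant 3 lay below control 3. The changes were 0.51 (95% interval 0.06 to 0.97, limma adjusted p = 0.173) and 0.51 (95% interval 0.11 to 0.90, limma adjusted p = 0.125), and neither passed. Without mutant 3 they were 0.77 (limma adjusted p = 0.00162) and 0.67 (limma adjusted p = 0.0151), and both passed. With every array left out in turn, the adjusted p of the first ran from 0.00162 to 0.434 and that of the second from 0.0151 to 0.383. In the array's numbering, 0 of the 10 nearest probe sets of the first lay on chromosome 3, the chromosome of Taf13. Chromosome 11 was the commonest among them. For the second, 10 of 10 lay on chromosome 3. It is therefore not settled that the first probe set reads Taf13. For the other 9 genes, 8 to 10 of the 10 nearest probe sets lay on the gene's own chromosome. In RefSeq, Taf5 overlaps Atp5md, Taf6 overlaps Ap4m1, Taf11 overlaps Anks1, and Taf4b and Taf7 each overlap 3 other annotated genes, so those readings could include a neighbour's transcript.

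**Figure D2:**
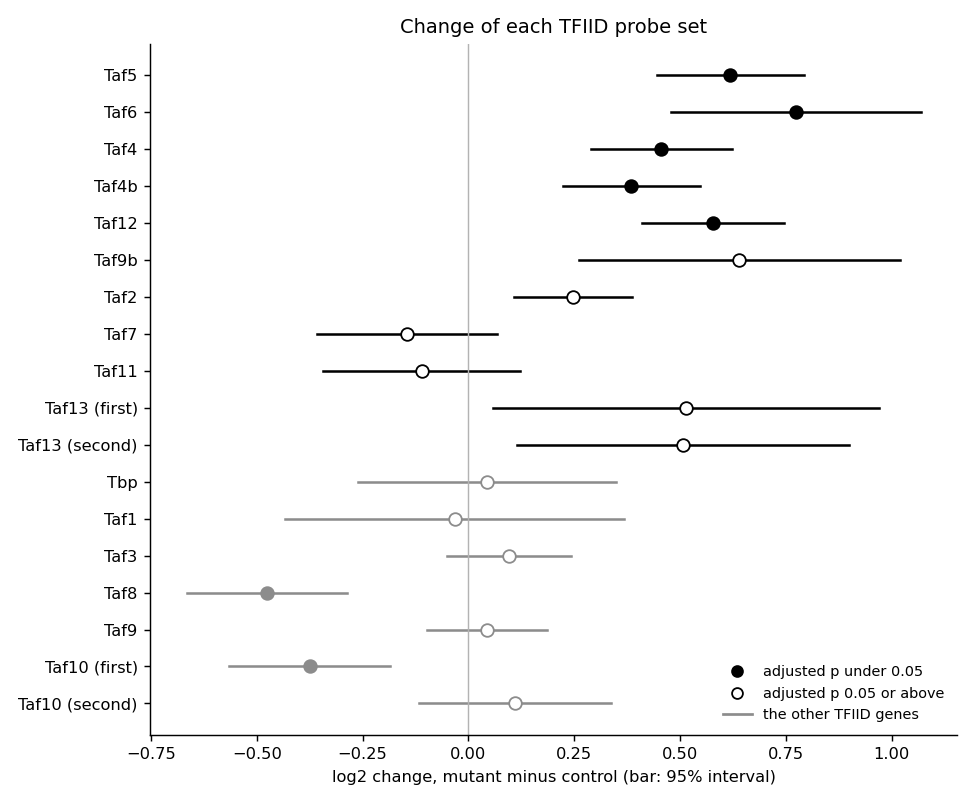
Log2 change, mutant minus control, of each TFIID probe set (x axis) with its 95% interval. Filled points passed the adjusted threshold, black rows are the 10 genes described here (the 2 probe sets of Taf13 apart, the one with the higher level first) and grey rows the other TFIID genes. The 5 filled black points lie between 0.38 and 0.77, and the filled grey points, Taf8 and Taf10 probe set 10365288 (marked first), at -0.48 and -0.37.

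The remaining TFIID genes gave a median log2 change of 0.01 over 6 measured, with 0 that rose and 2 that fell by limma, Taf8 and Taf10. That count takes Taf10 from probe set 10365288, the brighter one, while 10566525, placed on the chromosome of Taf10, changed by 0.11 and did not pass. Tbp, which binds the TATA box, stood at 10.90, 10.98 and 11.43 in mutants 1 to 3, against 11.07, 11.07 and 11.04 in controls 1 to 3, a change of 0.04 (95% interval -0.26 to 0.35). Taf1, Taf3 and Taf9 changed by -0.03, 0.10 and 0.04 and did not pass. Of the 5 genes listed for factors that bind TFIID at promoters, Gtf2a1, the large subunit of TFIIA, rose by 0.55 (95% interval 0.31 to 0.79, limma adjusted p = 0.0251). The other 4 did not pass, and the largest change among them was that of Gtf2b, which encodes TFIIB, at 0.33 (limma adjusted p = 0.0889).

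Paralogues were compared within each array, as the difference of the log2 intensities of both genes set against its mean over the controls. This gives an unequal change and not a level. Taf5 minus Taf5l, its counterpart in SAGA, stood at 0.97, 1.0 and 0.87 in mutants 1 to 3, against -0.12, 0.02 and 0.10 in controls 1 to 3. Taf5 rose while Taf5l fell (log2 change -0.33, limma adjusted p = 0.0254), so the difference moved by 0.95, more than the change of Taf5 itself. Taf6 minus Taf6l stood at 0.56, 0.66 and 1.13 in mutants 1 to 3, against -0.20, -0.02 and 0.22 in controls 1 to 3, a shift of 0.78. Taf6l itself changed by -0.01 (95% interval -0.21 to 0.19). Taf9b minus Taf9 shifted by 0.60 (0.36 without mutant 3), with values of 0.34, 0.39 and 1.07 in mutants 1 to 3, against 0.00, -0.09 and 0.09 in controls 1 to 3. The Taf9 probe set has 0 of its 10 nearest probe sets on the chromosome of Taf9, so this pair rests on a reading that is not settled.

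Taf4b minus Taf4 differed from these, at -0.03, -0.07 and -0.11 in mutants 1 to 3, against -0.09, 0.08 and 0.01 in controls 1 to 3. The shift of -0.07 lay within the spread, since both paralogues were higher by similar amounts. The exact two-sided permutation test over the 6 arrays gave p = 0.3 for Taf4b with Taf4 and p = 0.1 for each of the other 3 pairs, the smallest that 3 against 3 allows. Adjusted over the 4 pairs these were 0.3 and 0.133, so none passed. Taf7l was not analysed here.

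**Figure D3:**
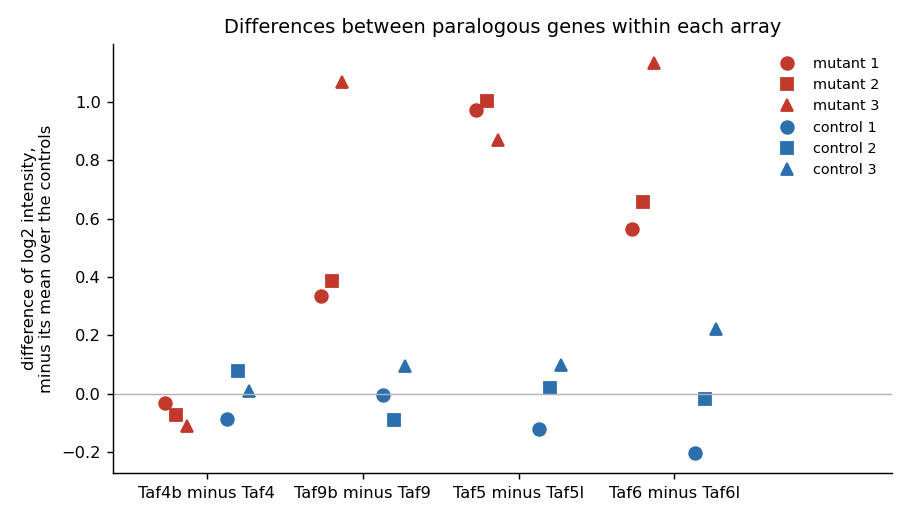
Difference of log2 intensity between paralogous genes on each array, minus its mean over the 3 control arrays (y axis), for 4 gene pairs (x axis). Red points are mutant arrays and blue points control arrays, and symbols mark replicate numbers. The mutant arrays lie above all controls for Taf9b minus Taf9, Taf5 minus Taf5l and Taf6 minus Taf6l, and among or below them for Taf4b minus Taf4.

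Whether the 5 rises passed depended on which arrays were kept, most of all on controls 1 and 2. Without control 1 or without control 2, 0 of the 10 genes passed, when 0.132% and 0.251% of all genes rose, although the log2 changes without control 1 and without control 2 were 0.58 and 0.61 for Taf5 and 0.61 and 0.54 for Taf12. Without mutant 2, 3 genes passed (Taf5, Taf6 and Taf12), with 1.18% of all genes. Without mutant 1 or control 3, 4 passed, and Taf4b was the one lost, with 1.41% and 1.12% of all genes. Without mutant 3, 8 genes passed, the 5 above with Taf2, Taf9b and Taf13, and 6.41% of all genes rose. Without control 3 and mutant 3 together the same 8 passed, with 7.4% of all genes. Each of the 8 genes with a positive change kept its sign with any single array left out.

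**Figure D4:**
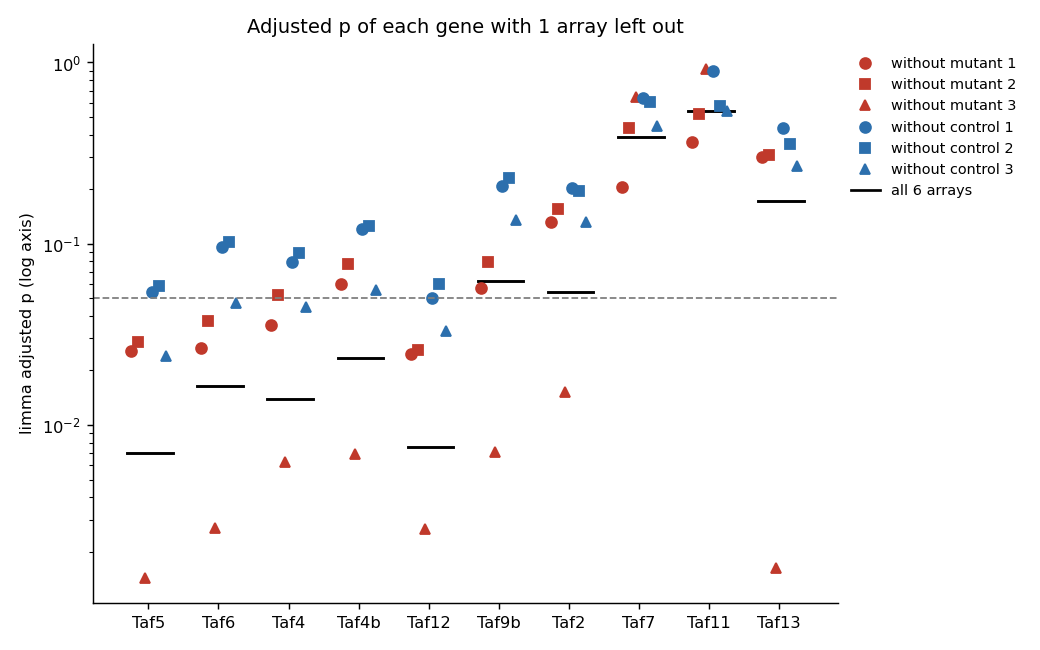
Limma adjusted p (y axis, log scale) of each of the 10 genes (x axis) with 1 array left out. Red points are without a mutant array, blue points without a control array, black lines all 6 arrays, and the dashed line is 0.05. The red triangles, without mutant 3, lie lowest for every gene except Taf7 and Taf11, and the blue circles and squares, without control 1 or control 2, lie above the dashed line throughout.

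Genes whose values followed the risers most closely were found as the 2 with the smallest Euclidean distance over the 6 arrays, each gene centred on its own mean. Nearest to Taf4 were Zfp612 (distance 0.0740) and Mbd2 (0.0838), which encodes a reader of methylated DNA. Nearest to Taf4b were Sgcb (0.0261), which encodes a sarcoglycan, and Ccdc150 (0.0823). For Taf5 they were Rad9b (0.0682), a relative of a checkpoint clamp gene, and Gbe1 (0.115), the glycogen branching enzyme. For Taf6 they were Jmjd8 (0.121) and Abhd4 (0.142), and for Taf12 Snx32 (0.0456), a sorting nexin gene, and Trappc2 (0.0651), a vesicle tethering gene. Each of these 10 genes also passed as higher in mutants, which the measure of likeness makes probable.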

How the data were processed

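Per the labels' protocols, biotin-labelled cDNA was made from 150 ng of RNA by a kit that covers whole transcripts. The deposited values are intensities on a linear scale from 20.5 to 21070, made with RMA per the submitters' processing notes; the RMA version, chip description and any filter were not given in the sources used. Their log2 was used as it stood, without further scaling or filtering. Probe sets were named from the platform annotation (16311 with 1 symbol, 734 with several, 1019 with none here), and 16284 of the single-symbol probe sets matched RefSeq by gene ID (GRCm38.p6). Mutant and control arrays (3 each) entered a limma model without covariates (lmFit and eBayes, limma 3.58.1, R 4.3.3). P-values were adjusted by Benjamini and Hochberg over the 16311 probe sets, and the probe set with the highest mean stood for a gene. The fit was tested on simulated data with equal noise on all arrays, which does not copy the wider spread of mutant 3. Pools are biological replicates by their titles, and the number of arrays limits the precision. All 10 genes are named, with members of 3 further lists (other TFIID genes, paralogues, TFIID-binding factors) that pass or complete a short count. The genes, lists, roles and tests were chosen with earlier results of these data known. Of the 6 paralogues listed, 3 were measured. Alternatives were a replicate block, other normalizations, a filter at the 40th percentile, all probe sets, probe set means, other variance models, array weights, Xist as a covariate, arrays left out and, chosen after seeing the data, the other Taf13 probe set.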

Additional observations from a re-analysis of the deposited data

How the results depend on the processing

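With single arrays left out, 0 to 8 of the 10 TFIID genes passed as higher and 41 to 1945 of all genes passed in either direction. With array weights, which gave mutant 3 the lowest weight (0.125), 8 passed and 3608 of all genes, and without control 3 and mutant 3 together 8 and 2125. The unmoderated linear model passed 0 of the 10 and 24 of all genes. With Xist as a covariate 5 of the 10 passed and 514 of all genes. The fit with the replicate block passed 6 of the 10, with Taf9b added (limma adjusted p = 0.0337), and 1084 of all genes. Same-numbered mutant and control arrays correlated at 0.14, 0.09 and 0.31 in their deviations from the group means, and mutant 1 correlated best with control 2 (0.15), so the numbers were not taken as pairs. In 0 of the alternatives did a gene of the 10 pass as lower by limma or change sign. The shifts of the 4 paralogue pairs kept their signs in the 9 alternatives run for them (quantile normalization, median centring, probe set means and single arrays left out); Taf9b minus Taf9 ran from 0.36 without mutant 3 to 0.73. In the remaining alternatives 5 or 6 of the 10 passed. The cause of these differences was not tested.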
